A study of Mus musculus with 40 samples.

Results

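Expression of 10 genes for secreted acute phase and Reg3 proteins was followed in the hearts of mice made to express *Il11* in cardiomyocytes. The genes are *Serpina3n*, *Hp*, *Lcn2*, *Saa3*, *Lbp*, *Lrg1*, *Itih4*, *Reg3a*, *Reg3b* and *Reg3g*, chosen by name as a group of related function. All 10 are listed in both deposited tables, which hold 17646 genes in males and 17223 in females.

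PolyA RNA from male and female mice was sequenced, with 1 library per mouse. The study names the tissue as left ventricle and the labels name it heart, so hearts below stands for that tissue. CM-Il11-Tg mice are heterozygous for α-MHC-MerCreMer, which drives Cre in cardiomyocytes once tamoxifen is given, and for the *Rosa26-Il11* transgene. They received tamoxifen on 5 days from 8 weeks of age and were examined 1, 3 and 6 weeks later. Controls were littermates that carry α-MHC-MerCreMer, are wild-type at Rosa26 and received tamoxifen as well. The study describes them as matched in age, but their labels give Baseline as the time point and 1 control group of each sex served all weeks, so time after tamoxifen and age cannot be told apart in these comparisons. A further group of CM-Il11-Tg mice received no tamoxifen and is called uninduced here. Each group has 4 libraries of each sex, except male controls and male hearts at 6 weeks, which have 3. Reads from the endogenous *Il11* gene and from the transgene cannot be told apart.

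Acute phase proteins are plasma proteins whose level moves during inflammation, mostly through transcription in the liver under IL6-family cytokines that signal through gp130 and STAT3. IL11 belongs to that family. Several of these genes are also switched on outside the liver in injured or inflamed tissue. Reg3 proteins are secreted C-type lectins known from the gut and the pancreas, where they are induced by injury and infection, and *Reg3b* is known as a signal that draws macrophages into injured heart muscle.

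Library depth ran from 16663513 to 65333832 reads on listed genes in males and from 19147947 to 30929192 in females. Values are CPM, read counts relative to library size as the authors scaled them, and fold changes are on the scale of log2(CPM + 0.5), which understates the change of genes with few reads. None of 8 cardiomyocyte markers was called at any week, but their summed level was lower after tamoxifen: in males it was 53150 to 64410 CPM in controls and 34350 to 44910 CPM at 6 weeks, without overlap, and in females 38280 to 56860 and 33580 to 43320 CPM. *Il11* was at 0 to 0.166 CPM in controls, 15.5 to 49.1 CPM in uninduced hearts and 328 to 819 CPM after tamoxifen. Among uninduced libraries, female replicate 3 and male replicate 1 stood apart from their group for these genes. Over all tested genes they were not the most distant libraries. Female replicate 3 lay at least 1 log2 unit from the mean of the others of its group at 606 of 16956 genes and female uninduced replicate 4 at 829, while male replicate 1 did so at 83 of 16931 genes, male uninduced replicate 3 at 121 and male replicate 4 at 6 weeks at 1033. Calls that changed without either library are given with and without it. All groups of a sex share 1 estimate of the spread, so these libraries also enter the standard errors of comparisons between other groups. A further 2 male libraries, whose title and description name different groups, entered no comparison.

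*Serpina3n*, *Hp*, *Lcn2*, *Lbp*, *Lrg1* and *Itih4*, the 6 genes with more than 3 reads in the controls, were higher than control at 1, 3 and 6 weeks in both sexes by limma. A call needed a Benjamini-Hochberg adjusted p below 0.05 and a change of 1 or more in log2. By the same rule 6.11%, 5.57% and 6.98% of all tested male genes were higher at these weeks and 1.95%, 1.18% and 1.52% lower. In females 5.82%, 6.48% and 7.87% of all tested genes were higher and 1.53%, 1.56% and 3.85% lower. The 3 weeks share their controls, so their counts are not independent of each other. The median log2 fold change of the 6 genes at 6 weeks was 4.67 in males and 4.73 in females, beside -0.0062 and -0.020 over all tested genes.

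The other 4 genes, *Saa3*, *Reg3a*, *Reg3b* and *Reg3g*, had at most 3 reads in the controls of a sex. They passed the filter on low values only through libraries where they were high, so their calls against control are partly fixed by the filter and are given as a description, as are their fitted changes, which depend on the constant added before the log. Of these 4 genes 2, 2 and 3 were called at 1, 3 and 6 weeks in males and 3, 3 and 4 in females, which makes 8, 8 and 9 of the 10 genes in males and 9, 9 and 10 in females. None of the 10 was called lower. *Hp* was also mostly below the filter's 0.5 CPM in controls, at 0.195 to 0.375 CPM in males and 0.222 to 0.56 CPM in females. It passed through libraries of transgenic mice, so its calls against control are partly fixed by the filter too. The median of all 10 at 6 weeks was 3.67 in males and 3.70 in females, and 4.29 and 4.46 when the 4 genes were set against 3 reads in the shallowest control.

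Every male library lay above every male control for all 10 genes after 1 and 6 weeks and for 9 after 3 weeks. Over all tested genes these shares were 22%, 18.4% and 20.4% in the order of the weeks. In females this held for all 10 genes at each week, as for 16.5%, 18.9% and 19.5% of all tested genes. *Serpina3n*, *Hp*, *Lcn2*, *Lbp*, *Lrg1* and *Itih4* met this at each week in both sexes. For *Saa3* and the *Reg3* genes the counts are a description only. Their controls held few reads or none, and 1 read of *Reg3g* was enough to lie above them. In tissue of mixed cells, more cells of a type and more RNA per cell cannot be told apart.

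**Figure D1:**
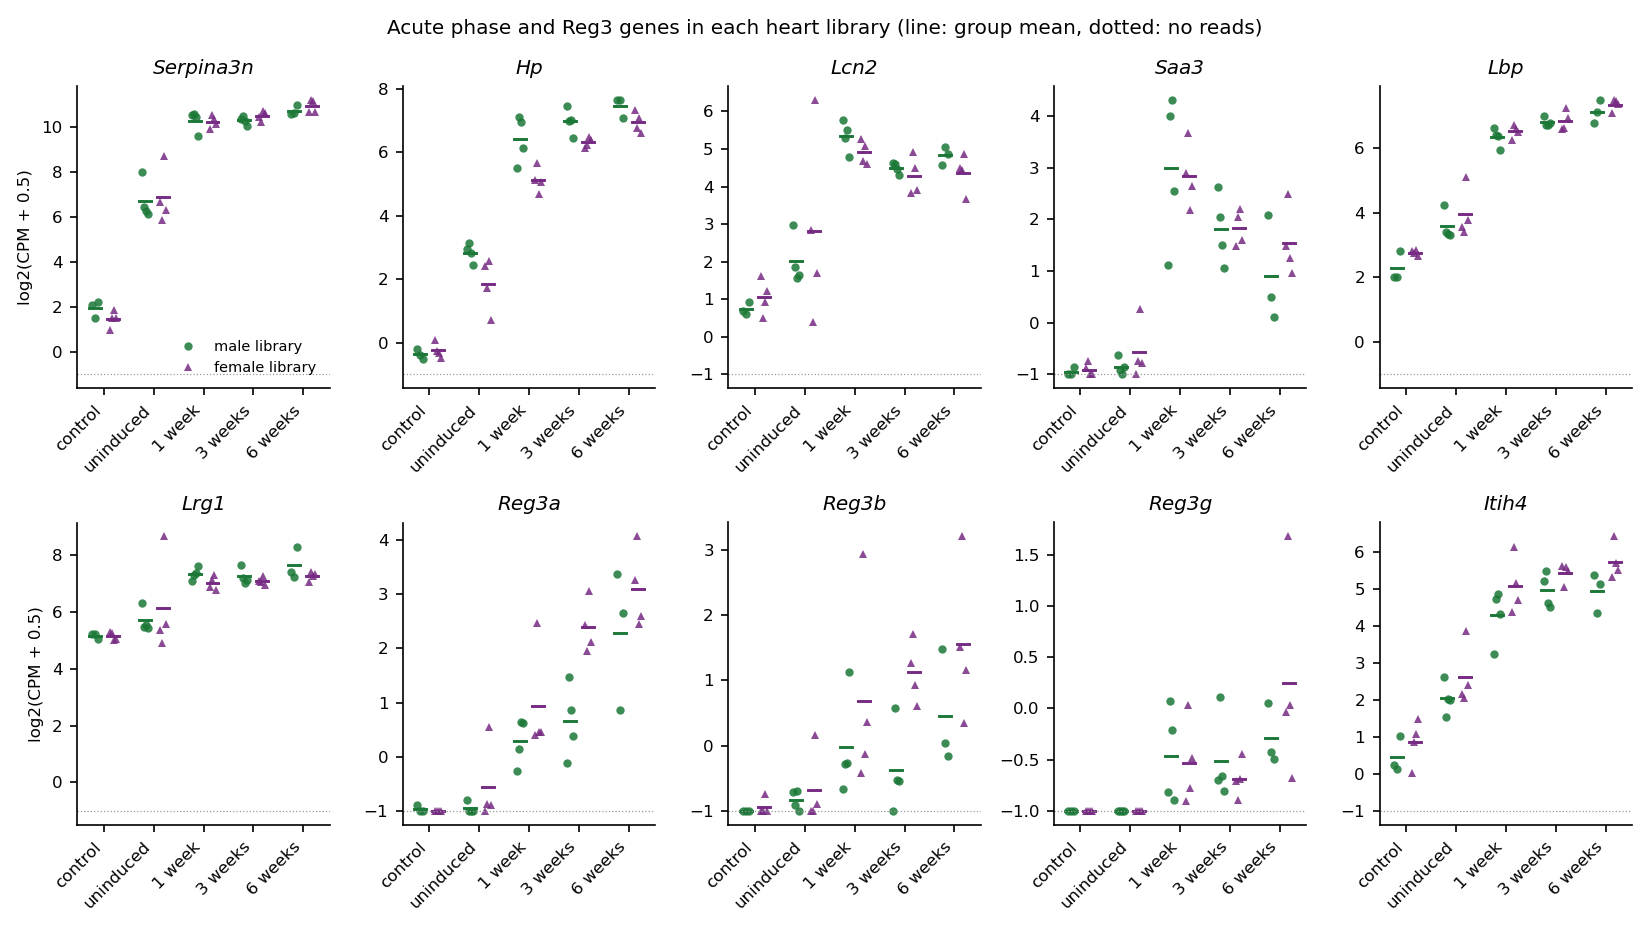
CPM of each of the 10 genes on the scale of log2(CPM + 0.5) in each library (circles male, triangles female), by group, with the group mean as a line and a dotted line where a library holds no reads. After tamoxifen the libraries of most genes lie above all controls of their sex, and single uninduced libraries stand out for *Lcn2* and *Lrg1*.

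*Serpina3n* encodes a secreted inhibitor of serine proteases related to human α1-antichymotrypsin and lies on chromosome 12 at 104372810 to 104380597 (GRCm39, plus strand). On the scale of log2(CPM + 0.5) it showed the largest change of the 10 genes at each week. By the ratio of mean CPM at 6 weeks *Hp* was higher in males, at 640.0 against 499 for *Serpina3n*, and lower in females, at 352 against 839.8. Male controls had 3.71, 2.39 and 4.17 CPM, and male hearts at 6 weeks had 1512, 1575 and 2039 CPM. Female controls had 1.46, 2.37, 3.15 and 2.38 CPM, and female hearts at 6 weeks had 1606, 2378, 2254 and 1633 CPM. The groups lie far apart, since the lowest induced heart of either sex at any week had 766 CPM. The change at 6 weeks was 8.78 ± 0.35 (SE) in males (limma, adjusted p 1.45e-12) and 9.45 ± 0.38 in females (adjusted p 2.08e-13). Most of the change on the log2 scale was present at 1 week, at 8.34 in males and 8.76 in females. Means at 1 week were 1290 ± 355 CPM (SD, n = 4) in males and 1219 ± 212 (n = 4) in females. At 6 weeks they were 1709 ± 288 (n = 3) and 1967 ± 405 (n = 4). The female libraries at 1 week all lay below those at 6 weeks, but the difference was not called (0.68 ± 0.38, limma, adjusted p 0.459). In males the libraries of these weeks overlapped. Of the possible stretches of 60 bases in its transcripts, 1.57% also occur in other genes of the Serpina3 cluster, so few of its reads could be shared with them.

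*Hp* encodes haptoglobin, which binds free haemoglobin in plasma, and lies on chromosome 8 at 110301759 to 110305804. It was nearly absent from controls, at 0.195 to 0.375 CPM in males and 0.222 to 0.56 CPM in females. After tamoxifen male hearts had 45.2, 136, 122 and 69.0 CPM at 1 week and 199.7, 200.4 and 134 CPM at 6 weeks. Female hearts had 34.04, 49.5, 24.97 and 32.9 CPM at 1 week and 162, 108, 134 and 96.9 CPM at 6 weeks. In females the libraries at 1 week all lie below those at 6 weeks, while in males 1 library at 1 week reached the lowest at 6 weeks. The changes at 6 weeks were 7.83 ± 0.32 in males (limma, adjusted p 1.45e-12) and 7.18 ± 0.29 in females (adjusted p 1.96e-13). The filter on low values partly fixes these calls, as stated above.

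*Lbp* and *Itih4* rose as well in both sexes. *Lbp*, which encodes the lipopolysaccharide binding protein that hands bacterial lipopolysaccharide to CD14, lies on chromosome 2 at 158148409 to 158174800. It went from 3.49 to 6.51 CPM in male controls to 108 to 178 CPM at 6 weeks, and from 5.76 to 6.60 to 135 to 179 CPM in females. *Itih4*, on chromosome 14 at 30608378 to 30624310, encodes an inter-α-trypsin inhibitor heavy chain of plasma. It went from 0.606 to 1.53 CPM to 19.8 to 41.4 CPM in males and from 0.517 to 2.33 to 39.8 to 86.0 CPM in females. Neither gene's induced libraries overlapped the controls. Changes at 6 weeks by limma were 4.84 ± 0.25 and 4.57 ± 0.25 for *Lbp* and 4.49 ± 0.38 and 4.88 ± 0.39 for *Itih4*, in males and females in that order (largest adjusted p 3.98e-08).

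At 6 weeks *Lcn2* and *Lrg1* differed from control by less than these 4 genes on the log2 scale. *Lcn2*, on chromosome 2 at 32274645 to 32278264, encodes lipocalin 2, which binds bacterial siderophores and is made by neutrophils and by injured epithelium. Its male values were 1.12, 1.02 and 1.42 CPM in controls, 54.0, 38.9, 44.98 and 27.2 CPM at 1 week and 23.2, 32.5 and 28.8 CPM at 6 weeks. Its female values were 2.58, 0.919, 1.401 and 1.83 CPM in controls, 38.1, 25.1, 33.5 and 23.5 CPM at 1 week and 22.2, 21.2, 28.6 and 12.2 CPM at 6 weeks. Controls and induced hearts did not overlap. *Lrg1*, on chromosome 17 at 56426283 to 56429001, encodes leucine-rich α2-glycoprotein, which modulates TGFβ signalling in endothelium. It was already present in controls, at 32.3 to 37.1 CPM in males and 31.4 to 38.8 CPM in females, and reached 150.4 to 312 CPM and 131 to 167 CPM at 6 weeks. Its changes at 6 weeks, 2.47 ± 0.25 in males and 2.11 ± 0.48 in females (limma, adjusted p 3.62e-07 and 0.00154), were the smallest of the 6 genes with reads in controls. The female standard error includes the spread of uninduced replicate 3, since all groups share 1 fit. *Gm56918* overlaps *Lrg1* on the other strand. The kit keeps strand, but whether the counting used it is not given in the sources used here.

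**Figure D2:**
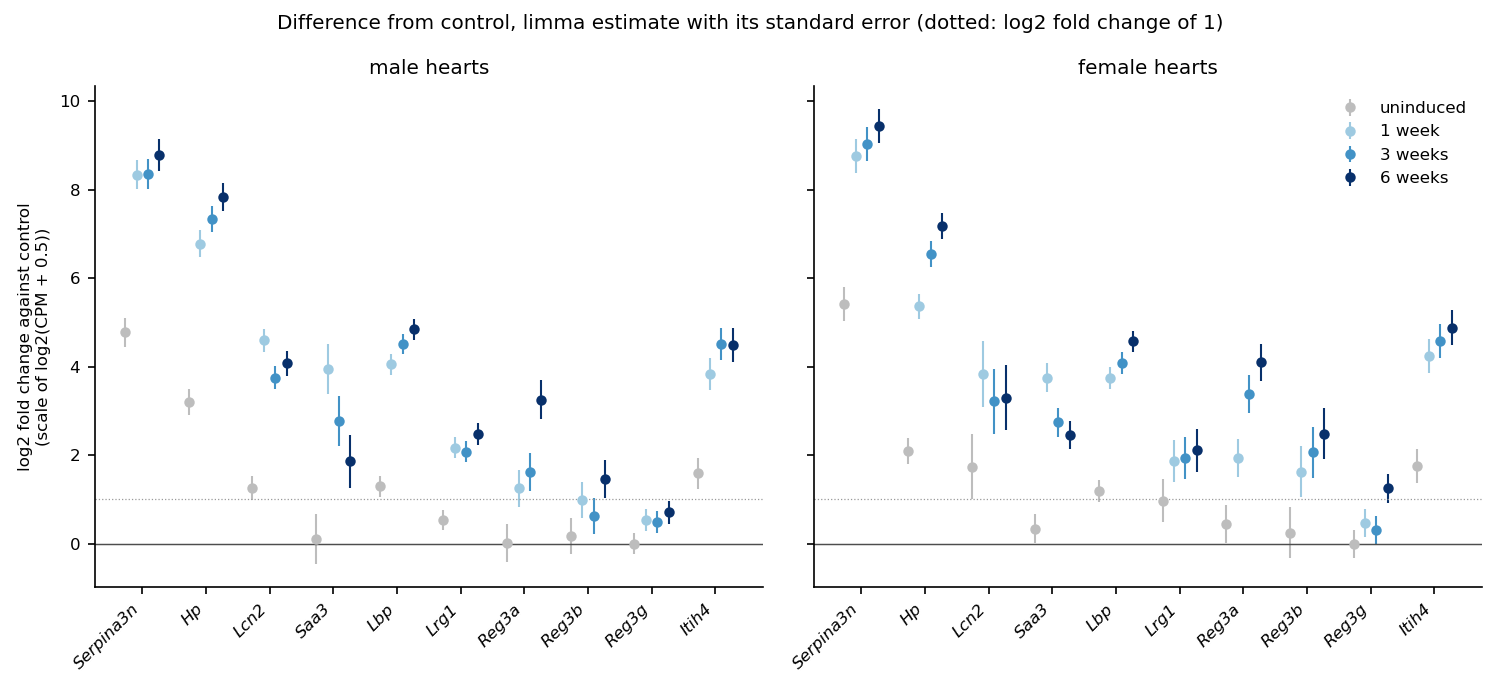
Difference from control in log2 fold change for each of the 10 genes in males (left) and females (right), as limma estimates with standard errors, for uninduced hearts and for 1, 3 and 6 weeks after tamoxifen. *Serpina3n* and *Hp* show the largest differences and *Reg3g* the smallest, at 0.71 in males and 1.25 in females at 6 weeks.

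*Saa3* encodes serum amyloid A3, the amyloid protein made mainly outside the liver, by macrophages and adipocytes among other cells, and lies on chromosome 7 at 46361422 to 46365576. Controls held 3 reads in all in each sex. At 1 week male hearts had 1.67, 15.4, 19.4 and 5.32 CPM and female hearts had 6.90, 12.3, 4.01 and 5.72 CPM. At 6 weeks they had 3.76, 0.918 and 0.583 CPM and 2.30, 5.11, 1.90 and 1.45 CPM. All induced libraries lie above all controls, and the highest values of both sexes are at 1 week. From the pooled reads the ratio to control at 1 week was 391 in males (95% exact binomial interval 133 to 1899) and 202 in females (68.7 to 980.0). At 6 weeks it was 70.0 in males (23.6 to 342) and 69.4 in females (23.5 to 338). Such intervals cover counting error only, not the spread between mice. The fitted change at 6 weeks in males, 1.86 ± 0.60 (limma, adjusted p 0.0278), lost its call when any 1 of the 3 controls or replicate 1 at 6 weeks was left out (adjusted p 0.0561 to 0.145).

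The 3 *Reg3* genes lie within 1 cluster on chromosome 6, *Reg3b* at 78347640 to 78350455, *Reg3a* at 78357692 to 78360810 and *Reg3g* at 78443246 to 78445859. No stretch of 60 bases of their transcripts occurs in another gene, so their reads can be told apart. *Reg3a* had 1 read in all male controls and none in female controls. Male hearts had 0.335, 0.599, 1.06 and 1.05 CPM at 1 week and 9.88, 1.31 and 5.76 CPM at 6 weeks. Female hearts had 0.818, 5.02, 0.878 and 0.867 CPM at 1 week and 9.08, 16.3, 4.99 and 5.55 CPM at 6 weeks. Every induced library lies above every control. Against 3 reads in the shallowest control, *Reg3a* at 6 weeks was at least 49.7-fold higher in males and 54.0-fold in females. In males the ratio of pooled reads, which rests on 1 control read, was 704 (95% interval 126 to 27847). The fitted changes at 6 weeks were 3.26 ± 0.45 in males and 4.10 ± 0.43 in females. The male call at 1 week (1.25 ± 0.42, limma, adjusted p 0.0275) was lost when any 1 of the 3 controls or replicate 3 or 4 at 1 week was left out (adjusted p 0.0573 to 0.0793), and with a pseudocount of 2 (0.212).

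*Reg3b* and *Reg3g* stayed low. Male controls held no read of *Reg3b* and female controls 2. At 6 weeks male hearts had 2.28, 0.530 and 0.396 CPM of *Reg3b* and female hearts 2.34, 8.72, 0.773 and 1.73 CPM. In males at 3 weeks the groups overlap, since 1 of 4 libraries held no read. Against 3 reads in the shallowest control, *Reg3b* at 6 weeks was at least 9.41-fold higher in males and 20.4-fold in females. In females the ratio of pooled reads, which rests on 2 control reads, was 127 (95% interval 35.0 to 1055). Its male call at 6 weeks (1.45 ± 0.43, limma, adjusted p 0.0168) was lost without replicate 1 at 6 weeks (0.94, adjusted p 0.108). The female call at 1 week (1.62 ± 0.58, adjusted p 0.0403) was lost without replicate 2 of that group (0.87, adjusted p 0.181), the library with 7.14 CPM. It was also lost without replicate 4 of that group (adjusted p 0.0525) and when any 1 of the 4 controls was left out (0.0579 to 0.0799).

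*Reg3g* had no reads in any control or uninduced library. At 6 weeks it was at 0.534, 0.247 and 0.210 CPM in males and at 0.476, 2.71, 0.527 and 0.123 CPM in females. These are 4 to 63 reads per library. It passed the filter on low values with 3 libraries in each sex, the fewest allowed, so its test says little. The mean at 6 weeks was at least 2.91-fold higher than 3 reads in the shallowest male control and at least 5.76-fold higher in females. That female mean rests largely on replicate 2, at 2.71 CPM. At 3 weeks in females the mean of 0.126 CPM was below that limit of 0.166 CPM, so no fold is given. In males edgeR and DESeq2 on recovered reads called *Reg3g* at all 3 weeks and limma at none (lowest adjusted p 0.0482, with a log2 fold change of 0.71). The female call at 6 weeks (1.25 ± 0.32, adjusted p 0.00395) fell to 0.77 without replicate 2.

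The 250 bases before the start sites of 5 genes are shown, those of the *Reg3* cluster because these genes had nearly no reads in controls, that of *Itih4* for its match to the STAT letters and that of *Serpina3n* for its change. They are RefSeq sequence of GRCm38.p6, another build than that of the gene positions above, read 5′ to 3′ on the strand of the gene. Capitals mark matches to TTCNNNGAA (the letters bound by STAT factors) or TTGCNNAA (those bound by C/EBP factors), searched on both strands.
Reg3a, chr6:78380459-78380708, plus strand: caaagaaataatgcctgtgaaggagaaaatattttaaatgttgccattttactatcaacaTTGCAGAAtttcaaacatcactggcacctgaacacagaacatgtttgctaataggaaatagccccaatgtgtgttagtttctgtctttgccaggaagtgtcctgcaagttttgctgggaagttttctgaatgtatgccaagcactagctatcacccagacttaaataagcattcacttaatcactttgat
Reg3b, chr6:78370635-78370884, plus strand: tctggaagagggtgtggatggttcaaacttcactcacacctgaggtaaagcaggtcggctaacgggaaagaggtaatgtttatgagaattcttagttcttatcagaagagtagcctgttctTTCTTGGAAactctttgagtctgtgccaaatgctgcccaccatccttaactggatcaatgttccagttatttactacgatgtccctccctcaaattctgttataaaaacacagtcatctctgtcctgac
Reg3g, chr6:78468875-78469124, minus strand: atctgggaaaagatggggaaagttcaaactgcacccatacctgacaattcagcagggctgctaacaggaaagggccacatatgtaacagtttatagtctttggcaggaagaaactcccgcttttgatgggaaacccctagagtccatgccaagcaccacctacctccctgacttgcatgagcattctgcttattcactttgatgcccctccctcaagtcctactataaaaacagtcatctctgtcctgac
Itih4, chr14:30886226-30886475, plus strand: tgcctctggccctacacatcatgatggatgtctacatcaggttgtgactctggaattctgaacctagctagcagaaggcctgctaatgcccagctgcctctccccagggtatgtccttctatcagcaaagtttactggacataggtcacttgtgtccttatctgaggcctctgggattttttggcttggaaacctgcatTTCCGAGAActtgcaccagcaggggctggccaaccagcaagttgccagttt
Serpina3n, chr12:104406458-104406707, plus strand: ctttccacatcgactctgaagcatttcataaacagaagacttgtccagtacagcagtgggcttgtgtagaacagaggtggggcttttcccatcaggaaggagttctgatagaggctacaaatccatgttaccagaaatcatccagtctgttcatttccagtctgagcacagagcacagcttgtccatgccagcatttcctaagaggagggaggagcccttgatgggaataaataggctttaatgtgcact

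The search covered 300 bases, with 50 after the start, in the 8 genes with an entry, all but *Hp* and *Lbp*. The STAT letters were found in *Reg3b* at -129 and *Itih4* at -51 and the C/EBP letters in *Lcn2* at -216, *Saa3* at -99 (on the minus strand of the gene) and *Reg3a* at -190, each position giving the first base of the match before the start. Among 32851 RefSeq promoters of the same length 8.30% hold the STAT letters, 10.8% the C/EBP letters and 4.01% the NF-kB letters (GGGA followed by NNTNCC), of which none of the 8 genes has a match in this window. A match is only a match of letters. The upstream sequences of the *Reg3* genes resemble each other, with 173 identical bases of 247 aligned (70.0%) for *Reg3b* and *Reg3g*, 138 of 193 for *Reg3a* and *Reg3g* and 121 of 186 for *Reg3a* and *Reg3b*.

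The weeks after tamoxifen were compared with each other to see which genes moved after the first week. In females *Hp* and *Reg3a* were called higher at 6 weeks than at 1 week, and in males no gene was called. In females *Hp* at 6 weeks was 1.82 ± 0.29 above its level at 1 week (limma, adjusted p 0.00149) and *Reg3a* 2.15 ± 0.43 above (adjusted p 0.0122). These are 2 of 10 genes, against 0.436% of all tested genes higher and 0.0531% lower. In males the differences were 1.04 ± 0.30 for *Hp* (adjusted p 0.165) and 2.00 ± 0.42 for *Reg3a* (adjusted p 0.0629). *Lbp* differed by 0.79 ± 0.23 in males and 0.83 ± 0.25 in females and was not called (limma, adjusted p 0.174 and 0.127). Of all tested male genes 0.124% were higher and 0.0295% lower. At an unadjusted p under 0.05 there were 4 of the 10 genes in males, against 15.4% of all tested genes, and 5 in females, against 12.6%. In males DESeq2 called 1, *Reg3a*, and edgeR none. *Reg3a* in males passed without replicate 3 at 6 weeks (2.72, adjusted p 0.000956). Whether the sexes differ was not tested, since their tables were scaled separately. The female call of *Reg3a* was lost with edgeR (adjusted p 0.131), with DESeq2 (0.274) and when any 1 of 4 libraries was left out (replicates 1, 3 and 4 at 1 week and replicate 2 at 6 weeks, adjusted p 0.0570 to 0.0632).

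*Saa3* and *Lcn2* had their highest means at 1 week. *Saa3* at 6 weeks differed from 1 week by -2.09 ± 0.57 in males (limma, adjusted p 0.153) and by -1.30 ± 0.32 in females (adjusted p 0.0588). The female difference passed the threshold without uninduced replicate 3 (adjusted p 0.0254), without replicate 3 at 1 week (0.0394) and without replicate 2 at 6 weeks (0.0129), and the male difference without replicate 1 at 1 week (0.0353) or without replicate 1 at 6 weeks (0.0438). *Lcn2* differed by -0.51 ± 0.26 in males and -0.54 ± 0.74 in females (limma, adjusted p 0.353 and 0.787). The female standard error includes the spread of uninduced replicate 3. Without that library the standard error of *Lcn2* at 6 weeks against uninduced hearts was 0.42 in place of 0.74. Between 1 and 3 weeks limma called none of the 10 genes in either sex, with 0.0118% of all tested genes higher and 0.0% lower in males and 0.136% and 0.0295% in females. At an unadjusted p under 0.05 there were 3 of 10 genes in each sex, against 16% of all tested genes in males and 10% in females, and edgeR and DESeq2 called none. *Reg3a* in females passed without replicate 2 at 1 week (1.95, adjusted p 0.0160). Between 3 and 6 weeks limma called none either, as for 0.0% of all tested genes in each direction. At an unadjusted p under 0.05 there was 1 of 10 genes in males, against 6.33% of all tested genes, and 2 in females, against 15.2%, shares near the background, and edgeR and DESeq2 called none. *Reg3a* in males passed without replicate 3 at 6 weeks (2.36, adjusted p 0.0221).

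**Figure D3:**
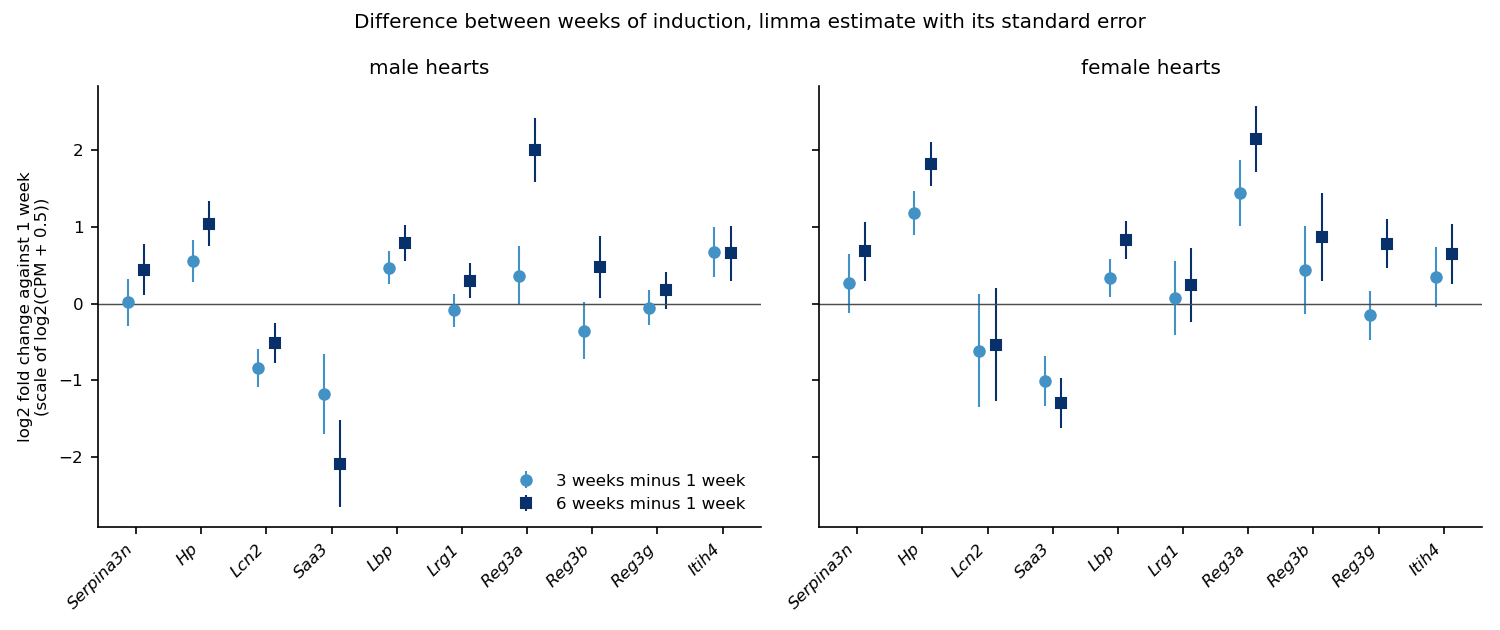
Difference from 1 week in log2 fold change at 3 weeks (circles) and 6 weeks (squares) for each of the 10 genes in males (left) and females (right), as limma estimates with standard errors. *Hp* and *Reg3a* lie above 0 at 6 weeks in both sexes and *Saa3* below, at -2.09 in males and -1.30 in females.

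Uninduced hearts were compared with control to see which genes differ without tamoxifen. Controls lack the *Rosa26-Il11* transgene but received tamoxifen, so transgene and tamoxifen cannot be told apart in this comparison. *Serpina3n*, *Hp*, *Lbp* and *Itih4* were higher in both sexes, and *Lcn2* in males. *Serpina3n* stood at 256, 87.2, 77.1 and 69.9 CPM in males and at 57.8, 101, 421 and 78.4 CPM in females, all far above the highest control of 4.17 CPM and below every induced heart. Its difference from control was 4.78 ± 0.33 in males (limma, adjusted p 3.12e-08) and 5.42 ± 0.38 in females (adjusted p 1.56e-08). *Hp* stood at 7.15, 8.36, 6.54 and 4.91 CPM in males and at 2.81, 4.84, 5.42 and 1.13 CPM in females, again above every control. *Hp* differed by 3.20 ± 0.30 and 2.09 ± 0.29 (adjusted p 1.65e-06 and 0.00021). These are 5 of 10 genes in males, against 0.366% of all tested genes, and 4 of 10 in females, against 0.720%. The libraries of 6 genes in males and 4 in females lay above all controls, as did those of 8.16% and 5.13% of all tested genes.

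The calls other than *Serpina3n* and *Hp* rest on few libraries. Female replicate 3 had 78.8 CPM of *Lcn2*, 403 CPM of *Lrg1* and 33.6 CPM of *Lbp*, while the other 3 libraries had 0.809 to 6.72, 29.3 to 47.4 and 9.99 to 13.0 CPM. Its *Lcn2* and *Lrg1* lie above every induced female heart. It also had the most *Il11* of the uninduced females, 49.1 CPM against 15.5 to 21.4. Without it 2 genes remained called in females, *Serpina3n* and *Hp*, with *Lbp* at 0.80 (adjusted p 0.00350) and *Itih4* at 1.35 (adjusted p 0.0566). Male replicate 1 had 256 CPM of *Serpina3n* and 7.34 CPM of *Lcn2*, against at most 87.2 and 3.14 CPM in the others, at 18.4 CPM of *Il11* beside 16.5 to 23.3 CPM. Without it 3 genes remained called in males, and without either of control replicates 1 and 3 only 2, *Serpina3n* and *Hp*. *Saa3* and the *Reg3* genes held at most 4 reads in any uninduced library except female replicate 3, where *Saa3* had 16, *Reg3a* 22 and *Reg3b* 14.

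**Figure D4:**
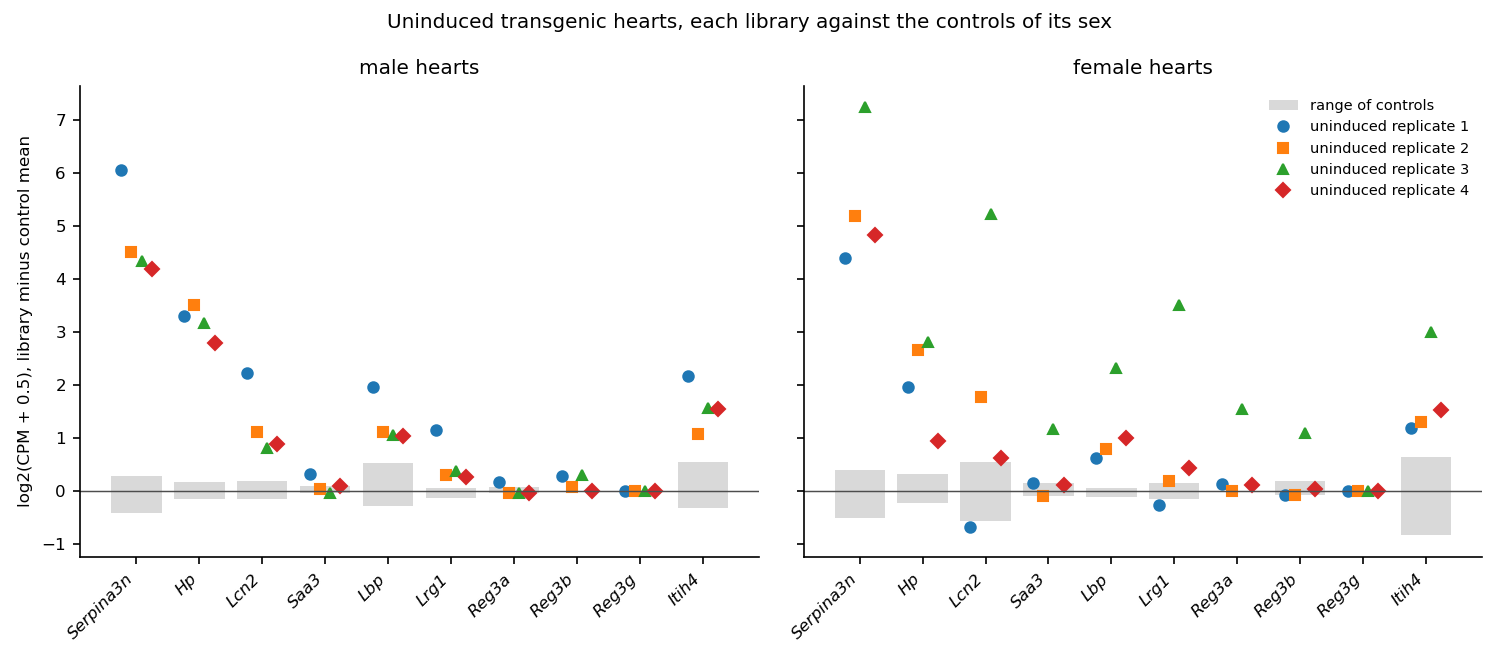
Each uninduced library as its difference from the mean of the controls of its sex, in log2(CPM + 0.5), with the range of the controls as a grey bar (males left, females right). *Serpina3n* and *Hp* lie above the controls in all 8 libraries, and female replicate 3 stands apart for *Lcn2*, *Lrg1* and *Lbp*.

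Induced hearts were also compared with uninduced hearts, which have the same genotype. Uninduced mice received no tamoxifen and are labelled Baseline, so *Il11* induction, tamoxifen and age cannot be told apart in this comparison. Of the 6 genes with reads in controls, 6 were higher at each week in males and 4 in females. With the other 4 genes, whose calls the filter partly fixes, the counts were 8, 8 and 9 in males at 1, 3 and 6 weeks (3.73%, 3.90% and 5.08% of all tested genes) and 6, 7 and 8 in females (2.80%, 3.73% and 4.93%). *Serpina3n* was 4.01 ± 0.33 higher at 6 weeks in males and 4.03 ± 0.38 in females, and *Hp* 4.62 ± 0.30 and 5.09 ± 0.29 (limma, largest adjusted p 1.51e-07). *Lcn2* and *Lrg1* passed in males at each week and in females at none, with 1.55 ± 0.74 and 1.14 ± 0.48 at 6 weeks (adjusted p 0.137 and 0.0938). Without female uninduced replicate 3 both passed at each week, at 2.72 and 1.98 at 6 weeks (adjusted p 5.58e-05 and 6.52e-09), and the female counts became 8, 9 and 10. These values share their induced libraries with the comparisons against control.

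Among induced hearts the level of *Il11* was set against that of each gene, over 11 male and 12 female libraries. The weeks were pooled and permuted together, so differences between weeks enter these correlations. Of 20 correlations 1 passed adjustment, that of *Lrg1* in males (Pearson r 0.871, permutation p 0.00068, adjusted p 0.0136, Spearman rho 0.709, permutation p 0.0184, adjusted p 0.369). Without the 2 libraries farthest from the median of *Il11* its r was 0.660 over 9 libraries (permutation p 0.0559, adjusted p 0.507), and none of the 20 passed. In females *Lrg1* gave r -0.474. *Serpina3n* gave -0.0743 in males and -0.521 in females.

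Marker genes of cell types that could bring these transcripts were read beside them. Of 12 markers of neutrophils, a known source of *Lcn2*, 4 were listed, and *Ly6g*, *Mpo*, *Elane*, *Camp*, *Ngp* and *Ltf* were not listed in either table. At 6 weeks 1 of these 4 was higher in males and 2 in females, with summed levels of 1.31 to 5.12 CPM in controls and 3.55 to 8.57 CPM in induced hearts. Macrophage markers rose with the 10 genes: 9 of 10 were higher in males and 10 of 10 in females at 6 weeks, with summed levels of 204 to 371 CPM in controls and 837 to 1301 CPM in induced hearts. Fibroblast markers did so as well, with 6 of 8 higher in each sex at 6 weeks and sums of 581 to 917 CPM against 2215 to 6191 CPM. The part of neutrophils, macrophages and fibroblasts in the result was not tested.

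Hepatocyte markers were uneven between libraries, with 1 of 9 tested markers higher in males at 1 week, *Alb*, and none of 9 in males or of 12 in females called at the other weeks. Their sum was 2.08 to 6.32 CPM in controls and up to 56.1 CPM in males at 1 week, 64.6 CPM in males at 6 weeks, 69.3 CPM in uninduced females and 111.5 CPM in females at 6 weeks. In males at 3 weeks it was 1.399 to 7.64 CPM and in females at 1 week 4.56 to 10.04 CPM, while *Hp* there was at 85.7 to 175 CPM and 24.97 to 49.5 CPM. The part of hepatocytes in the result was not tested. Of 10 pancreatic acinar markers 1 was listed (*Cela1*, at most 1.41 CPM, called higher in males at 1 and 6 weeks and in females at 3 and 6 weeks, by 1.13 and 1.43 at 6 weeks), and of 8 intestinal markers 1 (*Lgals4*, which fell by 3.45 in females at 6 weeks), with *Prss2*, *Cpa1*, *Vil1* and *Epcam* not listed. Of 8 markers of adipocytes 2 were listed, *Cfd* and *Fabp4*, while *Adipoq* and *Plin1* were not. Against control 1 of these 2 was higher in females at 1 week and in uninduced females, and neither was called in the other groups. Their sum was 331 to 452 CPM in male controls and 199 to 310 CPM at 6 weeks. In females it was 333 to 547 and 237 to 341 CPM. *Cfd* averaged 0.185 CPM in male controls and 0.188 CPM in males at 6 weeks, so these male sums are nearly all *Fabp4*. The part of adipocytes in the result was not tested.

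Related genes were read from the same fits, by lists of known function. Of 23 other positive acute phase proteins, 14 were tested in males and 16 in females, of which 6 and 8 rose at 6 weeks and none fell (medians 0.96 and 1.23, against -0.0062 and -0.020 over all tested genes). They include *C3*, the central complement protein (4.30 in males and 5.49 in females), *Timp1*, an inhibitor of metalloproteinases (4.55 and 4.99), and *Ptx3*, a pentraxin made outside the liver (3.48 and 4.97). *Serping1*, the C1 inhibitor, *A2m* and *Cd14* rose too. *Fga*, *Fgg* and *Hpx*, classic liver products, did not pass at 6 weeks, with 0.60, 0.72 and 0.63 in males and 0.37, 0.80 and 0.32 in females. Among negative acute phase proteins, which fall in plasma during inflammation, none fell, and *Trf* (transferrin, 2.28 and 2.83) and *Ahsg* (2.27 and 1.56) rose.

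*Serpina3n* did not rise alone in its family. Of 7 relatives tested, 6 rose in males and 5 in females at 6 weeks, led by *Serpina3i* (5.52 and 4.96) and *Serpina3m* (5.70 and 4.37). *Serpina3n* shares stretches of 60 bases with *Serpina3m* but not with *Serpina3i*. Stretches shared among the relatives themselves were not measured, so the split of reads among them is not known. *Itih3* (2.41 and 3.07) was the 1 relative of *Itih4* that rose, of 3 tested in males and 4 in females. *Reg3d*, the only other gene of the Reg family listed, was listed in females and rose by 1.10 at 6 weeks.

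Of 14 tested receptors, partners and targets of these proteins, 5 rose in males and 9 in females at 6 weeks. *Mmp9*, the metalloproteinase that binds lipocalin 2, rose by 4.81 and 4.68, and *Tgfbr2* by 2.33 and 2.40. *Tlr2* and *Fpr2*, receptors named for serum amyloid A, rose by 1.21 and 2.08 and by 1.06 and 1.57, and *Cd14*, the partner of *Lbp*, by 1.30 and 1.92. Of the upstream regulators tested, 4 of 12 rose in males and 7 of 12 in females, *Il11* among them. *Socs3*, the feedback inhibitor induced by STAT3, rose by 4.65 and 4.56, *Cebpd* by 1.58 and 1.36 and *Il6* by 1.48 and 1.44. *Stat3* itself stayed below the fold threshold, at 0.92 and 0.91.

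**Figure D5:**
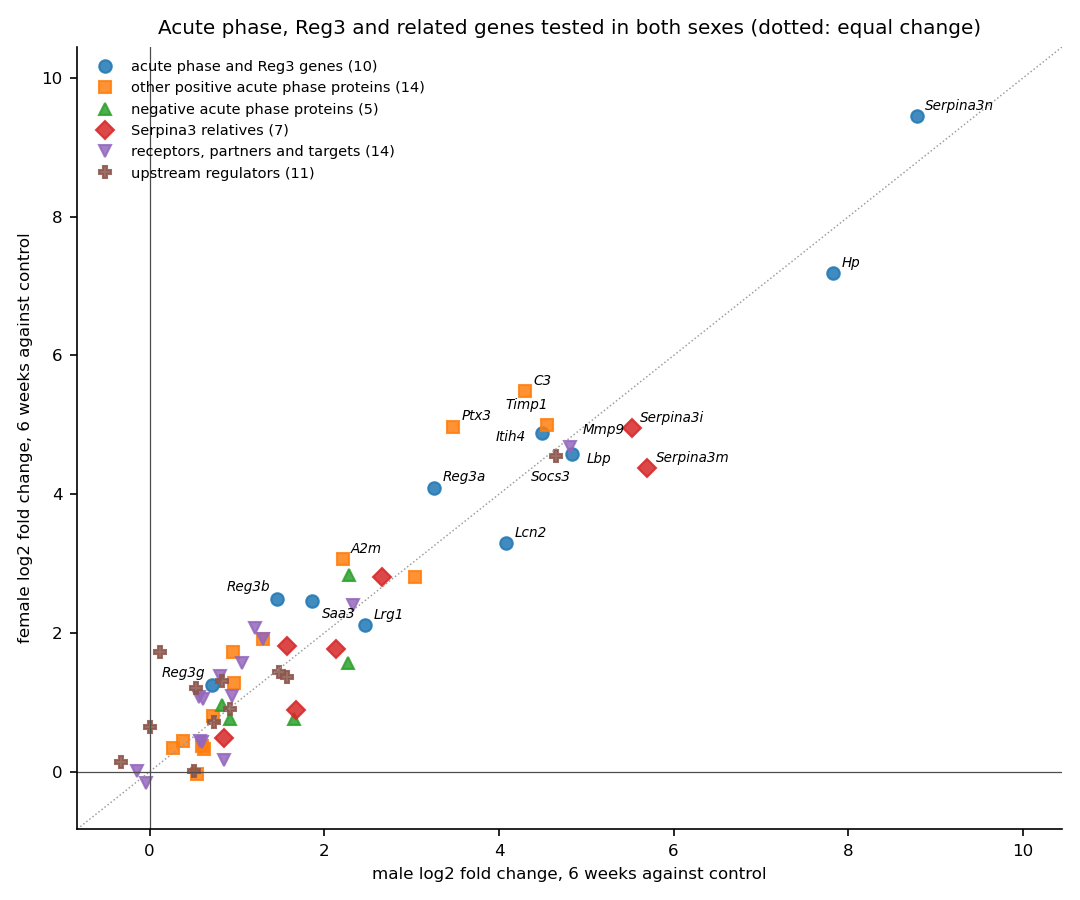
Log2 fold change at 6 weeks against control in males (horizontal axis) and females (vertical axis) for the 10 genes and for related genes tested in both sexes, by list, without *Il11*. *Serpina3n* and *Hp* lie beyond all related genes in both sexes, and *C3*, *Timp1*, *Mmp9*, *Socs3*, *Serpina3i* and *Serpina3m* lie near *Lbp* and *Itih4*.

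Levels were compared between genes only per kilobase of exon (CPM per kb). At 6 weeks *Serpina3n* was the highest in both sexes, at 437 ± 73.6 (SD, n = 3) CPM per kb in males and 503 ± 104 (n = 4) in females. *Lrg1* (116 ± 49.3 and 84.95 ± 8.71) and *Hp* (105 ± 22.2 and 73.5 ± 16.96) followed and did not differ from each other beyond their spread. *Lbp* came next at 29.03 ± 7.27 and 33.3 ± 4.01, then *Lcn2* and *Itih4*, whose order differed between the sexes. *Lcn2* was at 10.75 ± 1.78 in males and 8.02 ± 2.58 in females, and *Itih4* at 8.54 ± 2.95 and 14.9 ± 5.57. *Reg3a* was at 5.02 ± 3.81 and 7.97 ± 4.62, and *Reg3b*, *Saa3* and *Reg3g* were at 2.36 or less. In controls *Lrg1* was the highest, at 19.7 and 19.5 CPM per kb.

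For 9 of the 10 genes, the gene with the most similar pattern over all 18 male and 20 female libraries was found by the smaller of the male and female Pearson correlations, as a description of values that share libraries and groups. *Serpina3n* was closest to *Mmp3* (r 0.991 in males and 0.993 in females) and *Lbp* to *Scara3* (0.993 and 0.988). *Hp* was closest to *Clca3a1* (0.977 and 0.974) and *Itih4* to *Cxcl14* (0.987 and 0.973). *Lcn2* was closest to *Lrg1*, another of the 10 genes (0.938 and 0.935), and *Lrg1* to the metallothionein gene *Mt1* (0.946 and 0.954). The female values include uninduced replicate 3, which had the most *Lcn2* and *Lrg1* of all female libraries, and were not computed without it. *Reg3b* was closest to *Reg3a* (0.796 and 0.901), *Reg3a* to *D430019H16Rik* (0.879 and 0.921) and *Saa3* to *Cthrc1* (0.896 and 0.886).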

How the data were processed

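Reads of polyA libraries (paired, 60 bases) were aligned by the authors to GRCm39 with STAR 2.7.10a, counted on Ensembl 106 genes with featureCounts (Rsubread 2.10.4) and analysed with edgeR 3.38.1. The deposited signal values, 1 table per sex, are CPM with scaling factors (columns sum to 817395 to 1196278), and 100% lie within 0.001 of a whole number of reads, which were recovered by division. Of 40 libraries, 38 have labels that give 1 group. The other 2, both male, have a title that contradicts the description and entered no test.

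Tests used limma 3.58.1 (R 4.3.3, mean-variance trend, all groups of 1 sex in 1 fit) on log2(CPM + 0.5) of genes reaching 0.5 CPM in 3 or more libraries (16931 male, 16956 female genes). A call needed a Benjamini-Hochberg adjusted p below 0.05 and a change of 1 or more in log2. A two-sided exact permutation test of each gene cannot go below p = 0.0286, or 0.1 for males at 6 weeks, and reached that value for all 10 genes in females at each week and for 6, 7 and 10 in males at 1, 3 and 6 weeks. These counts include *Saa3* and the *Reg3* genes, which had at most 3 reads in the controls of a sex. The share of all tested genes that reached that value was not computed, so the counts are a description only. Every library lay above every control for 16.5%, 18.9% and 19.5% of all tested female genes at these weeks. In males the shares were 22%, 18.4% and 20.4%. Correlations used 100000 permutations. Where controls held no reads, folds were set against 3 reads in the shallowest control. For *Reg3a* and *Reg3b* at 6 weeks this was done in both sexes. Alternatives were other pseudocounts, filters, scaling, fits, edgeR 4.0.16 and DESeq2 1.42.0 on recovered reads, a replicate block and each library left out. Fits of all comparisons without the 2 uninduced libraries that stand apart were chosen after seeing the data. The fit was tested on simulated data. Genes named from a list are the up to 6 with the largest change among those called in both sexes at 6 weeks. *Fga*, *Fgg*, *Hpx*, *Stat3*, *Reg3d*, *Cfd*, *Fabp4* and genes named as not listed were named after their values were seen. The 10 genes and the lists were chosen with earlier results of these data known. Gene positions are from GENCODE vM39.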

Additional observations from a re-analysis of the deposited data

Results flagged for a closer look

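Of 80 sets of 4 libraries of 1 gene in 1 group, 17 held a library whose gap to the nearest other, relative to the range, passed Dixon's 95% limit. For independent, normal values chance gives about 1 in 20. These shares cannot be compared, since the genes share libraries, CPM are skewed and sets with at most 3 reads per library could not be flagged. Female uninduced replicate 3 was the highest of its group for *Serpina3n* (421 CPM), *Lcn2* (78.8), *Saa3* (0.705), *Lbp* (33.6), *Lrg1* (403), *Reg3a* (0.970), *Reg3b* (0.617) and *Itih4* (14.1). Male uninduced replicate 1 was the highest for *Serpina3n* (256 CPM), *Lcn2* (7.34), *Lbp* (18.4) and *Lrg1* (79.8). In females at 1 week replicate 2 stood out for *Reg3a* (5.02 CPM) and *Reg3b* (7.14), and at 6 weeks replicate 2 for *Reg3g* (2.71). In males replicate 4 at 1 week stood out for *Reg3b* (1.69 CPM) and replicate 2 at 3 weeks for *Reg3g* (0.580).

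The 2 male libraries with conflicting labels entered no comparison. The library titled control and described as 6 weeks held 1559 CPM of *Serpina3n*, 107.6 of *Hp*, 22.5 of *Lcn2*, 1.35 of *Saa3*, 143 of *Lbp*, 130.2 of *Lrg1*, 3.82 of *Reg3a*, 0.492 of *Reg3b*, 0.492 of *Reg3g* and 36.1 of *Itih4*, with 511 CPM of *Il11*. The library titled 6 weeks and described as control held 4.66 CPM of *Serpina3n*, 0.677 of *Hp*, 1.79 of *Lcn2* and 43.7 of *Lrg1*, each above the highest grouped male control, with 0.597 CPM of *Il11*.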

How the results depend on the processing

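Of the single-gene results against control under alternative settings, 1284 kept direction and side of the threshold, 20 newly passed it, 48 no longer passed it and none reversed. In the comparisons with uninduced hearts and between weeks, 33 calls were gained and 42 lost. Counts of called genes that moved by over 1.5 times were as follows, and the cause was not tested. For uninduced hearts against control, males gave 3 (in place of 5) with a pseudocount of 2, and females 2 (in place of 4) with only the compared groups in the fit. For 6 weeks against 1 week, males gave 1 (in place of 0) with a pseudocount of 2 and with DESeq2, and females 1 (in place of 2) with a pseudocount of 0.1, edgeR, DESeq2 and only the compared groups in the fit. For 3 weeks against 1 week, females gave 1 (in place of 0) with a pseudocount of 2 and with only the compared groups. Without the 2 libraries farthest from the median *Il11*, 0 correlations passed (in place of 1). Leaving out 1 library gave 2 to 5 called genes in uninduced males and 2 to 5 in uninduced females, 0 to 1 for 6 weeks against 1 week and 0 to 1 for 6 weeks against 3 weeks in males, and 0 to 1 for 3 weeks and 1 to 3 for 6 weeks against 1 week in females. DESeq2 gave no adjusted p for *Lrg1* in females, which was left out.

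Replicate numbers did not pair the libraries: same-numbered libraries of different groups had a mean residual correlation of 0.0132 in males and 0.0255 in females. With a replicate block 7, 8 and 9 genes were called against control at 1, 3 and 6 weeks in males and 9, 9 and 10 in females, and 4 in uninduced hearts of each sex. With the block 3 genes were called in females at 6 weeks against 1 week, with *Saa3* at -1.30 (adjusted p 0.0456). Few control reads of *Saa3* and the *Reg3* genes limit the precision of their folds.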
